A study of Homo sapiens with 12 samples.

Results

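The 8 genes described here code for a death ligand, its receptors and the proteins that carry or block the death signal: *TNFSF10*, *TNFRSF10A*, *TNFRSF10B*, *FAS*, *FADD*, *CASP8*, *CFLAR* and *XIAP*. They were chosen by name, and all 8 were found in both deposited count tables, among 30984 genes listed for KYSE30 and 78691 for U138MG. Their messenger RNA was measured after PTDSS1i, the small-molecule inhibitor DS55980254 of the phosphatidylserine-making enzyme PTDSS1. KYSE30 is an esophageal squamous cell carcinoma line and U138MG is labelled as a glioblastoma line, both of WT genotype. Each line had 3 cultures given 100 nM PTDSS1i for 48 h and 3 given DMSO, the vehicle, for 48 h, which makes 12 libraries of poly-A RNA. KYSE30 formed batch 1 and U138MG batch 2 in the labels, so line and batch cannot be told apart and treatments were compared within a line. The series describes the 3 cultures of a group as biological replicates of 1 cell line each.

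Death receptors are cell surface proteins that start apoptosis when their ligand binds. TRAIL, the product of *TNFSF10*, binds DR4 (*TNFRSF10A*) and DR5 (*TNFRSF10B*), while FAS has a ligand of its own. The bound receptors gather the adaptor FADD, which brings in procaspase-8 (*CASP8*), and active caspase-8 cleaves the executioner caspases. c-FLIP, made from *CFLAR*, resembles caspase-8 and takes its place at FADD, and XIAP binds and inhibits caspases further down. In cells under endoplasmic reticulum stress, DR5 is a known transcriptional target of CHOP (*DDIT3*).

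Total counts per library ran from 18800932 to 26514658, and the counts of the 8 genes ran from 182 to 6829 per library. Relative counting error was largest at the low end, which held *TNFRSF10A* under DMSO in U138MG and *FAS*. Normalized CPM is the count relative to library size after edgeR's TMM scaling. The calls are from edgeR's quasi-likelihood test within each line, at a Benjamini-Hochberg adjusted p under 0.05 over all tested genes (16389 in KYSE30 and 17666 in U138MG). The cell type labels were checked against marker genes, in CPM of the library totals. The libraries labelled U138MG held the squamous keratin *KRT5* at 1470 ± 83.4 CPM under DMSO (SD, n = 3) and *TP63* at 276 ± 7.36 CPM. *VIM* was at 0.206 ± 0.0662 CPM there, the astrocyte marker *GFAP* at 2.36 ± 0.183 CPM, and the glial markers *OLIG2* and *S100B* had 0 counts in all 6 libraries. Of 6 squamous epithelial markers, 4 stood above 1 CPM in all of these libraries, while *KRT14* (0.198 CPM under DMSO) and *KRT6A* (0.488) were low. Of 6 mesenchymal markers 4 did as well, with *SPARC* at 713 CPM under DMSO, and of 8 glial markers 2 did. *KRT5*, *TP63*, *VIM* and most glial markers go against the glioblastoma label, while *SPARC* and some other mesenchymal markers do not. The libraries are therefore called "labelled U138MG". KYSE30 held *TP63* at 98.2 ± 7.41 CPM, while *KRT5* stayed at or near 0 (at most 3 counts per library). With treatment, the summed squamous markers moved from 860 to 929 up to 1072 to 1101 CPM in KYSE30, and from 2370 to 2522 down to 1308 to 1358 CPM in the libraries labelled U138MG. In the latter, glial markers went from 45.0 to 48.7 down to 11.0 to 12.2 CPM, mesenchymal markers from 841 to 872 down to 449 to 464 CPM, and leukocyte markers, nearly all *CD68*, from 25.6 to 31.8 up to 100.4 to 108 CPM. In KYSE30 these 3 sums moved from 106 to 109 down to 93.6 to 98.1, from 98.4 to 149 down to 87.0 to 91.1, and from 0.296 to 1.01 to 0.801 to 0.872 CPM. Single genes carried much of these sums, and others of the same list moved against them. In KYSE30 the squamous sum followed *CDH1* (514 to 703 CPM) while *TP63* went from 98.2 to 68.1, and the mesenchymal sum followed *FN1* (98.3 to 37.4) while *VIM* went from 3.99 to 24.6. In the libraries labelled U138MG, *KRT5* carried most of the squamous sum (1470 to 526 CPM) while *EPCAM* went from 248 to 348, *SPARC* most of the mesenchymal sum (713 to 348) and *SOX2* most of the glial sum (38.9 to 4.29). *SOX2* also carried most of the glial sum in KYSE30, the esophageal line (99.4 to 88.0 CPM), so both glial sums chiefly follow this gene. In bulk RNA, fewer cells of a type and less RNA per cell cannot be told apart, and the part of these shifts in the results below was not tested.

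The windows at the start sites of *TNFSF10* and *CASP8* are printed because these were the gene that fell furthest and the gene that was called in neither line, and because theirs were the only windows of these genes with a match to the interferon response pattern. Both come from RefSeq on GRCh38.p14 and run from 250 bases before to 50 bases after an annotated start. They are read along the strand of the gene, and capitals mark the motif matches.
TNFSF10, chr3:172523381-172523680, minus strand: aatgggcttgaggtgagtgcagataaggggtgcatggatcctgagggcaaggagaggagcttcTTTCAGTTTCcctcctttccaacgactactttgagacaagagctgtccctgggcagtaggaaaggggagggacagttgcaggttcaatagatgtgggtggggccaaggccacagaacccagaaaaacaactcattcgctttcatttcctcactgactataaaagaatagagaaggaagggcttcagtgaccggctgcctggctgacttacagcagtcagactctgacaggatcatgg
CASP8, chr2:201233213-201233512, plus strand, the first of 3 annotated starts: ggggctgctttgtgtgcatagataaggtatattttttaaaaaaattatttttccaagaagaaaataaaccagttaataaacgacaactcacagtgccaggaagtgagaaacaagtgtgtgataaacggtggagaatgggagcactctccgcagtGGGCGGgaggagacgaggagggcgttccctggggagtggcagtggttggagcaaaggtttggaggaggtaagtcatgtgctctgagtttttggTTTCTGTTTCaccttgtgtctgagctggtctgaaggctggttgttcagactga

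The match to the core of interferon-stimulated response elements (GAAA and GAAA with any 2 bases between) lies on the opposite strand in both windows and starts 187 bases before the *TNFSF10* start and 3 bases before the *CASP8* start. Of 35116 RefSeq windows of this length, 3.57% hold it on either strand. The GC box GGGCGG, held by 45.0% of windows, starts at position -96 of the *CASP8* window and is absent from that of *TNFSF10*. Windows were found for 6 of the 8 genes, and none is shown for *TNFRSF10A* or *TNFRSF10B*. None of the 15 windows of the 6 genes held TGATGNAA, the pattern of CHOP and ATF4 composite sites (3.62% of all windows), the NF-kB pattern (GGGA, any base, TTTCC; 0.558%), or TGACGTCA, the cyclic AMP response element (1.85%). The motifs were searched on both strands and do not overlap in the printed windows. A match describes letters only.

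In KYSE30, 4 of the 8 genes rose with PTDSS1i and 1 fell. Of all tested genes, 62% were called in KYSE30, 30.1% higher and 32% lower, so the number called among the 8 stood near the background. In the libraries labelled U138MG, 5 of the 8 rose and 1 fell, against 67.5% of all tested genes called, 33.9% higher and 33.6% lower. With a log2 fold change beyond 1 also required, 0 of the 8 were called in KYSE30, against 13.4% of all tested genes (6.4% higher and 7.04% lower). By the same rule *TNFRSF10A* and *TNFRSF10B* were higher and *TNFSF10* was lower in the libraries labelled U138MG, against 19.8% of all tested genes (8.19% higher and 11.6% lower). The treated and vehicle libraries did not overlap for 6 of the 8 genes in KYSE30 and 7 of the 8 in the libraries labelled U138MG. Over all tested genes these shares were 66.3% and 71.4%. The median log2 fold change of the 8 genes was 0.28 in KYSE30 and 0.30 in the libraries labelled U138MG, where the medians of all tested genes were -0.03 in both.

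**Figure D1:**
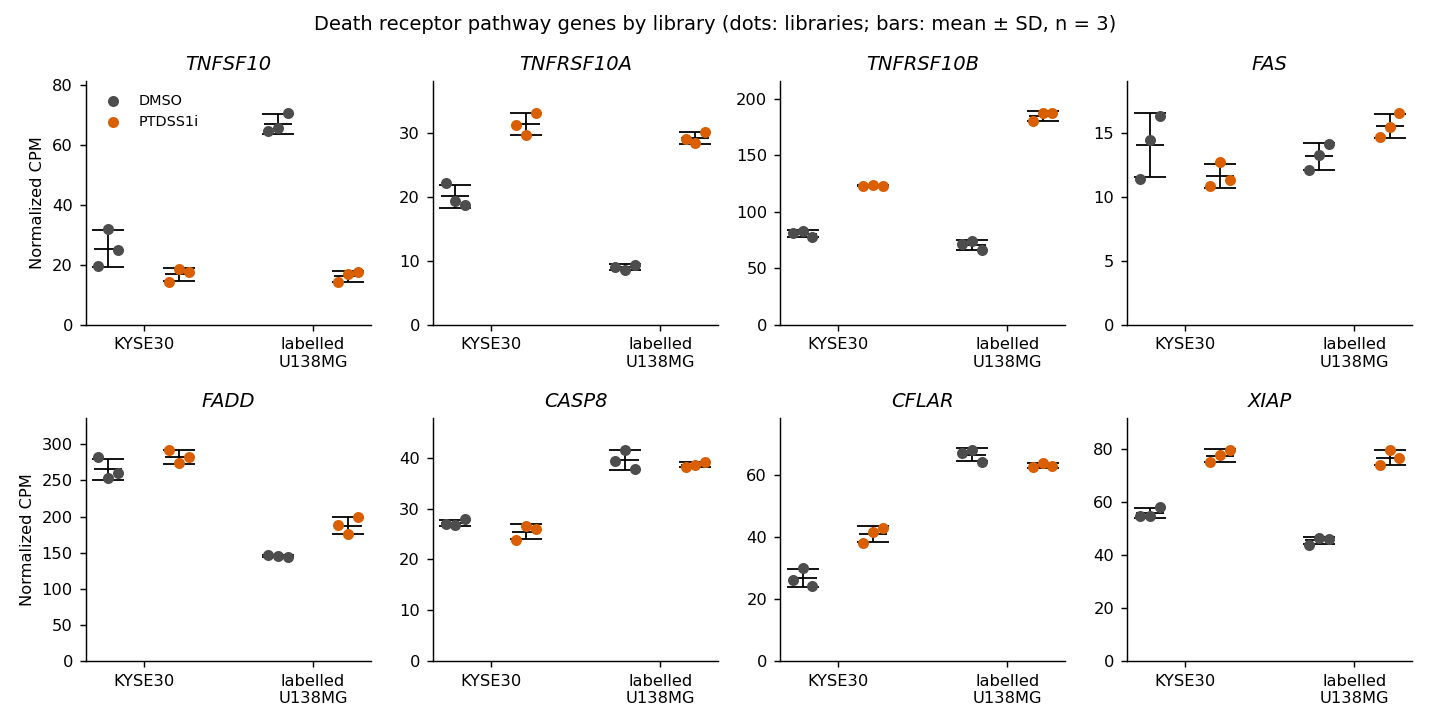
Each panel plots 1 gene, with normalized CPM on a linear axis from 0 and the 4 groups side by side. Dots are libraries and bars are the mean ± SD (n = 3). The treated *TNFRSF10B* libraries stand above the vehicle libraries in both lines, at 123 against 80.5 and at 185 against 70.6 on average, while the *CASP8* groups lie close together.

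*TNFSF10*, the TRAIL ligand, lost most of its messenger RNA in the libraries labelled U138MG. *TNFSF10* (ENSG00000121858) lies on the minus strand of chr3:172505508-172523507 in GENCODE v29 on GRCh38, as do the other gene positions given below, and its exons overlap no other gene. The vehicle libraries labelled U138MG held 64.6, 65.4 and 70.6 normalized CPM and the treated ones 14.1, 17.0 and 17.4. The groups lay far apart, and the level fell from 66.9 ± 3.26 to 16.2 ± 1.81 (SD, n = 3). On the log2 scale the change was -2.05 (standard error 0.07, adjusted p = 1.85e-19 by edgeR). Of all tested genes there, 5.36% had a larger change in either direction. In KYSE30 the vehicle libraries held 19.4, 31.7 and 24.9 normalized CPM and the treated ones 14.3, 18.6 and 17.6. All 3 treated libraries lay below the vehicle libraries, but the vehicle spread was wide, and the log2 fold change of -0.59 (standard error 0.21, 95% interval -1.11 to -0.08) just missed the threshold (adjusted p = 0.0508 by edgeR). Its adjusted p ran from 1.83e-07 to 0.125 over 13 alternatives and was under 0.05 in 9 of them, always with a negative change. DMSO replicate 1 was the lowest of the KYSE30 vehicle libraries for *TNFSF10* and for most of the interferon-stimulated genes counted below. It was the lowest for *IFIT1* (40.6 against 54.5 and 56.2 normalized CPM) and also for *XAF1* (0.83 against 3.58 and 3.19). It was not the lowest for *MX1* (1.46 against 1.96 and 1.10) or *IRF1* (38.7 against 45.8 and 38.2). A link of these genes to *TNFSF10* was not tested. Without that library the log2 fold change of *TNFSF10* was -0.74 (adjusted p = 0.000265 by edgeR), and without DMSO replicate 2 it was -0.41 (adjusted p = 0.00864). Without any 1 of the 4 other libraries it stayed uncalled, at adjusted p-values of 0.0926 (DMSO replicate 3), 0.112 (PTDSS1i replicate 1), 0.0528 (PTDSS1i replicate 2) and 0.125 (PTDSS1i replicate 3) by edgeR.

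*TNFRSF10A* and *TNFRSF10B*, the receptors DR4 and DR5 that TRAIL binds to kill, rose in both lines and more in the libraries labelled U138MG. *TNFRSF10A* (ENSG00000104689) lies on the minus strand of chr8:23190452-23225126, and 7.59% and 9.01% of its exon bases overlap the opposite-strand genes *TNFRSF10A-AS1* and *AC100861.1*. Whether the counting used the strand is not stated, so reads in such overlaps could belong to either gene. In KYSE30 *TNFRSF10A* stood at 22.2, 19.4 and 18.7 normalized CPM under DMSO and at 31.4, 29.8 and 33.2 under PTDSS1i. The libraries separated cleanly, and the fold was 1.57 (log2 fold change 0.65, standard error 0.08, adjusted p = 2.04e-07 by edgeR). In the libraries labelled U138MG it stood at 9.07, 8.61 and 9.44 under DMSO and at 29.1, 28.4 and 30.3 under PTDSS1i, a 3.24-fold rise (log2 fold change 1.69, standard error 0.08, adjusted p = 5.18e-17 by edgeR). There 8.09% of all tested genes had a larger change in either direction, while 27.2% had a larger one than *TNFRSF10A* in KYSE30.

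*TNFRSF10B* (ENSG00000120889) lies on the same strand and chromosome, at chr8:23020133-23069179, with 1.3% of its exon bases shared with the opposite-strand gene *RHOBTB2*. Its KYSE30 libraries held 80.9, 83.3 and 77.3 normalized CPM under DMSO and 123, 124 and 123 under PTDSS1i. The treated libraries were nearly equal to each other and all above the vehicle, a 1.53-fold rise (log2 fold change 0.61, standard error 0.05, adjusted p = 8.92e-10 by edgeR). The libraries labelled U138MG held 71.4, 74.4 and 66.1 under DMSO against 180, 187 and 187 under PTDSS1i, a 2.62-fold rise (log2 fold change 1.39, standard error 0.04, adjusted p = 1.09e-21 by edgeR). A larger change in either direction was seen for 29% of all tested genes in KYSE30 and 12.2% in the libraries labelled U138MG. Per kilobase of annotated exon, *TNFRSF10B* was the more abundant of the pair in every group, at 15.6 against 6.82 normalized CPM per kilobase in KYSE30 under DMSO and 35.8 against 9.91 in the libraries labelled U138MG under PTDSS1i.

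*FAS*, the receptor of FAS ligand, moved little, and its direction differed between the lines. *FAS* (ENSG00000026103) lies on the plus strand of chr10:88990582-89015785, and 8.93% of its exon bases overlap *ACTA2* on the opposite strand. In KYSE30 it stood at 11.4, 14.5 and 16.4 normalized CPM under DMSO and at 10.9, 12.7 and 11.3 under PTDSS1i. The groups overlapped, and the log2 fold change of -0.28 (standard error 0.12) was called lower at an adjusted p of 0.0405 by edgeR. In the libraries labelled U138MG, it stood at 12.1, 13.3 and 14.2 under DMSO and at 14.7, 15.5 and 16.6 under PTDSS1i, with no overlap, and the log2 fold change of 0.24 (standard error 0.09) was called higher at an adjusted p of 0.0206 by edgeR. Neither call was firm. The KYSE30 call was lost in 6 of 13 alternatives, with a log2 fold change of -0.16 (adjusted p = 0.287 by edgeR) without DMSO replicate 3, and the other in 5 of 13, with 0.09 (adjusted p = 0.373 by edgeR) when library totals alone set the scale. The KYSE30 call was also lost without DMSO replicate 2 (adjusted p = 0.0893), PTDSS1i replicate 1 (0.143) or PTDSS1i replicate 3 (0.116), and the call in the libraries labelled U138MG without DMSO replicate 1 (0.102) or PTDSS1i replicate 3 (0.0839), all by edgeR.

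*FADD*, the adaptor shared by these receptors, rose modestly in the libraries labelled U138MG. *FADD* (ENSG00000168040) lies on the plus strand of chr11:70203163-70207390, and an antisense gene on the opposite strand, *AP000879.1*, overlaps 54.92% of its exon bases, so its counts are uncertain if strand was not used. It stood at 148, 145 and 144 normalized CPM under DMSO and at 189, 175 and 199 under PTDSS1i in those libraries. The groups did not overlap, and the rise was 0.36 on the log2 scale (standard error 0.04, adjusted p = 8.72e-09 by edgeR). The rise was 0.22 with library totals alone or with upper-quartile scaling, and was still called. KYSE30 held 282, 253 and 260 under DMSO and 293, 274 and 282 under PTDSS1i. There the groups overlapped and *FADD* was not called (log2 fold change 0.09, 95% interval -0.02 to 0.20, adjusted p = 0.138 by edgeR). It was called higher without DMSO replicate 1, at 0.15 (adjusted p = 0.00904 by edgeR), and when both lines were fitted together, at 0.13 (adjusted p = 0.0197).

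*CASP8*, the initiator caspase of the pathway, was called in neither line. *CASP8* (ENSG00000064012) lies on the plus strand of chr2:201233443-201287711. In KYSE30 its values were 27.0, 26.7 and 27.9 normalized CPM under DMSO and 23.9, 26.6 and 25.9 under PTDSS1i. The treated libraries all lay below the vehicle by a small margin, with a log2 fold change of -0.10 (95% interval -0.24 to 0.05, adjusted p = 0.241 by edgeR). Libraries labelled U138MG held 39.2, 41.6 and 37.7 under DMSO and 38.1, 38.5 and 39.1 under PTDSS1i. These overlapped, and the log2 fold change was -0.04 (95% interval -0.15 to 0.08, adjusted p = 0.589 by edgeR). When library totals alone set the scale, *CASP8* was called lower in both lines, at -0.20 (adjusted p = 0.0208 by edgeR) and -0.18 (0.00514), and with upper-quartile scaling it was called lower in the libraries labelled U138MG, at -0.18 (0.00573). Library totals shifted the median of all genes by -0.11 in KYSE30 and -0.15 in the libraries labelled U138MG, and upper-quartile scaling by -0.15 in the latter.

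*CFLAR*, which codes for the caspase-8 decoy c-FLIP, rose in KYSE30 and was not called in the libraries labelled U138MG. *CFLAR* (ENSG00000003402) lies upstream of *CASP8* on the same strand, at chr2:201116104-201176687, and its exons overlap *IMPDH1P10* (6.6%) and *CFLAR-AS1* (3.45%) on the opposite strand and *AC007283.1* (1.98%) on the same strand. Gene counts do not separate its long and short isoforms. KYSE30 held 26.1, 30.0 and 24.4 normalized CPM under DMSO and 38.3, 41.8 and 43.1 under PTDSS1i. Every treated library was above every vehicle library, a 1.53-fold rise (log2 fold change 0.62, standard error 0.08, adjusted p = 3.88e-07 by edgeR). Of all tested genes in KYSE30, 28.9% had a larger change in either direction. The libraries labelled U138MG held 67.1, 68.2 and 64.2 under DMSO and 62.5, 63.8 and 62.9 under PTDSS1i. There the treated libraries lay just below the vehicle ones and the log2 fold change was -0.08 (95% interval -0.17 to 0.01, adjusted p = 0.128 by edgeR). It was called lower, at -0.22 (adjusted p = 7.3e-05 by edgeR), with library totals alone, at -0.22 (adjusted p = 8.02e-05) with upper-quartile scaling, and at -0.10 (adjusted p = 0.0471) with at least 10 counts required in every library.

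Ratios of raw counts within a library do not depend on the scaling, and 3 pairs were compared, chosen after their values were seen. For *CFLAR* over *CASP8*, the block against its target, KYSE30 libraries gave 0.966, 1.13 and 0.874 under DMSO and 1.60, 1.57 and 1.66 under PTDSS1i. The ratio moved from 0.988 ± 0.127 to 1.61 ± 0.0487 (SD, n = 3), without overlap (exact permutation test, two-sided, p = 0.1, the smallest p that 3 libraries against 3 allow). The libraries labelled U138MG gave 1.71, 1.64 and 1.70 and then 1.64, 1.66 and 1.61, which overlapped (exact p = 0.2). For *TNFSF10* over *TNFRSF10B*, ligand against receptor, the ratio moved from 0.314 ± 0.0707 to 0.137 ± 0.0180 in KYSE30 and from 0.950 ± 0.102 to 0.0875 ± 0.00787 in the libraries labelled U138MG (n = 3), without overlap in either (exact p = 0.1 in each). *TNFRSF10A* over *TNFRSF10B* stood at 0.250 ± 0.0214 and 0.255 ± 0.0145 in KYSE30 (n = 3, exact p = 0.8), and went from 0.129 ± 0.0136 to 0.158 ± 0.00561 in the libraries labelled U138MG (n = 3, exact p = 0.1). Ratio levels also carry the lengths of the transcripts, so each ratio was read only between treatments.

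**Figure D2:**
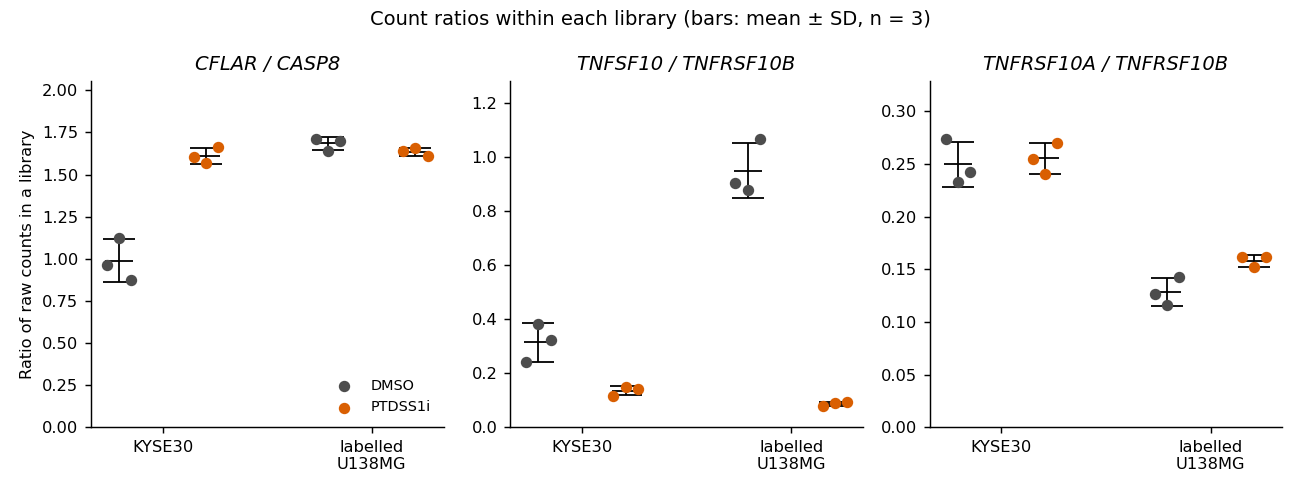
Each panel plots the ratio of the raw counts of 2 genes in a library on a linear axis from 0, with dots for libraries and bars for the mean ± SD (n = 3). *CFLAR* over *CASP8* goes from 0.988 to 1.61 in KYSE30 and stands at 1.68 and 1.64 in the libraries labelled U138MG, and *TNFSF10* over *TNFRSF10B* drops in both lines, to 0.137 and 0.0875.

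*XIAP*, a direct inhibitor of caspases, rose in both lines. *XIAP* (ENSG00000101966) lies on the plus strand of chrX:123859724-123913979 with no exon overlap. KYSE30 held 54.5, 54.7 and 58.1 normalized CPM under DMSO and 74.9, 77.6 and 79.7 under PTDSS1i. The groups were well apart, and the fold was 1.39 (log2 fold change 0.47, standard error 0.06, adjusted p = 1.86e-07 by edgeR). The libraries labelled U138MG held 43.9, 46.4 and 46.1 under DMSO and 73.9, 79.5 and 76.5 under PTDSS1i, a 1.68-fold rise (log2 fold change 0.75, standard error 0.05, adjusted p = 3.73e-14 by edgeR). A larger change in either direction was seen for 39.1% of all tested genes in KYSE30 and 29.7% in the libraries labelled U138MG.

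The treatment effect differed between the lines for 7 of the 8 genes, by the interaction of line and treatment in edgeR over the 18405 genes tested of those listed in both tables, where 49.9% of all genes differed. The difference was positive for 5 of the 8 (background 25.5%) and negative for 2 (background 24.4%), and it passed 1 in size for *TNFRSF10A* and *TNFSF10* (background 16.4%, of which 6.76% positive and 9.61% negative). The difference, labelled U138MG minus KYSE30, was 1.01 on the log2 scale for *TNFRSF10A* (standard error 0.11, adjusted p = 5.09e-09) and 0.73 for *TNFRSF10B* (standard error 0.07, adjusted p = 6.56e-11). Both receptors thus rose by more in the libraries labelled U138MG. The difference was -1.50 for *TNFSF10* (standard error 0.23, adjusted p = 0.000387), the largest in size among the 8, and -0.73 for *CFLAR* (standard error 0.09, adjusted p = 2.01e-08). *FAS* differed by 0.48 (standard error 0.15, adjusted p = 0.00836), *XIAP* by 0.24 (standard error 0.07, adjusted p = 0.00628) and *FADD* by 0.23 (standard error 0.07, adjusted p = 0.0057). The *FAS* difference was no longer called without KYSE30 DMSO replicate 3, at 0.34 (adjusted p = 0.0694), and those of *FADD* and *XIAP* under upper-quartile scaling, at 0.12 and 0.13. For *CASP8* the difference was 0.02 (standard error 0.09, adjusted p = 0.893). All of these p-values are from edgeR. The joint fit scales all 12 libraries together, so these differences are not exactly those of the 2 separate fits.

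**Figure D3:**
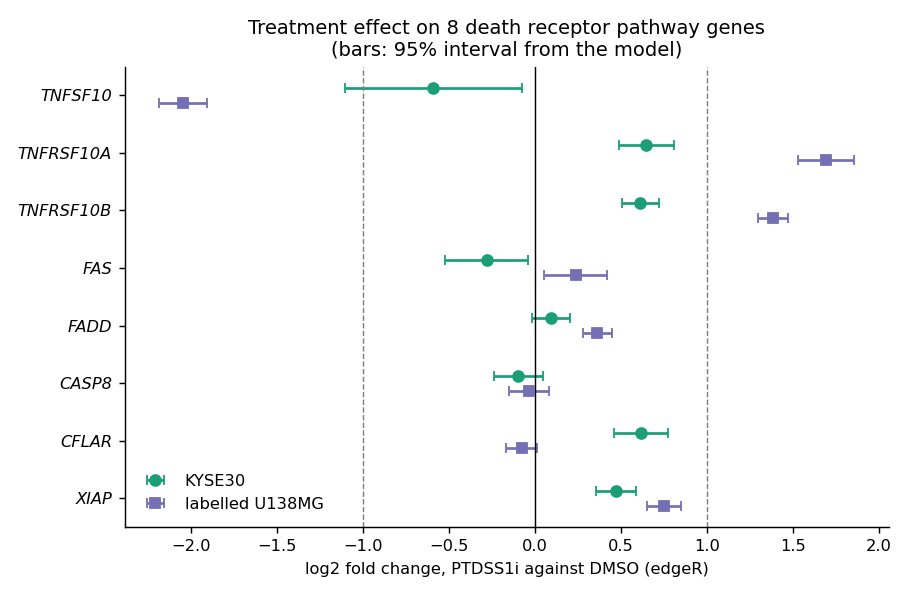
The log2 fold change of PTDSS1i against DMSO is plotted for each of the 8 genes, with circles for KYSE30, squares for the libraries labelled U138MG, bars for the 95% interval of edgeR's model and dashed lines at -1 and 1. The intervals of the lines lie apart for *TNFSF10*, *TNFRSF10A*, *TNFRSF10B*, *FAS*, *FADD*, *CFLAR* and *XIAP*, and overlap for *CASP8*.

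Beyond these 8, 56 further genes of the pathway were read from 4 lists. In KYSE30, 45 of them were tested, 19 higher and 13 lower, against 30.1% and 32% of all tested genes, with a median log2 fold change of 0.11. In the libraries labelled U138MG, 47 were tested, 20 higher and 15 lower, against 33.9% and 33.6%, with a median of 0.03. That balance depended on the scale, with 14 higher and 24 lower under library totals alone and under upper-quartile scaling. The interaction test called a difference between the lines for 29 of the 48 tested there, against 49.9% of all genes. Of 11 further ligands and receptors, 5 were tested in each line, with 4 higher and none lower in KYSE30 and 4 higher and 1 lower in the libraries labelled U138MG. *TNFRSF10D*, a decoy receptor that binds TRAIL without passing on the death signal, rose with the death receptors. It went from 62.3 ± 9.15 to 104.5 ± 6.48 normalized CPM in KYSE30 (log2 fold change 0.75, adjusted p = 3.95e-05 by edgeR) and from 25.7 ± 0.527 to 55.9 ± 3.26 in the libraries labelled U138MG (1.12, adjusted p = 3.53e-16). The other membrane decoy, *TNFRSF10C*, was too low to be tested in either line, as were *TNF* and *LTA*. *FASLG*, the FAS ligand, had 0 counts in every library labelled U138MG and was not listed in the KYSE30 table. *TNFSF15*, a ligand of the death receptor *TNFRSF25*, rose from 14.5 to 28.5 normalized CPM in KYSE30 (0.98, adjusted p = 1.59e-09 by edgeR). In the libraries labelled U138MG it rose by 0.72 (adjusted p = 6.96e-07 by edgeR).

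Of 19 adaptors, kinases and ubiquitin enzymes, 18 were tested in each line, with 8 higher and 5 lower in KYSE30 and 6 higher and 5 lower in the libraries labelled U138MG. The shares of all tested genes were 30.1% higher and 32% lower in KYSE30, and 33.9% and 33.6% in the libraries labelled U138MG. *TNFAIP3*, which codes for the ubiquitin-editing protein A20, rose most of this list in both lines, from 7.01 ± 0.557 to 28.3 ± 0.966 normalized CPM in KYSE30 (n = 3; log2 fold change 2.01, adjusted p = 1.71e-14 by edgeR) and from 24.3 ± 0.297 to 73.9 ± 2.81 in the libraries labelled U138MG (1.60, adjusted p = 8.92e-21). *ITCH*, an E3 ligase known to act on c-FLIP, rose from 97.2 to 252 normalized CPM in the latter (1.37, adjusted p = 5.68e-23 by edgeR) and by 0.45 in KYSE30. *RBCK1*, a subunit of the linear ubiquitin ligase, rose from 102 to 224 in the libraries labelled U138MG (1.14, adjusted p = 9.49e-21 by edgeR). It rose by 0.26 in KYSE30 (adjusted p = 0.000166 by edgeR). *TAX1BP1*, a partner of A20, rose by 0.87 in KYSE30 (adjusted p = 1.21e-12 by edgeR) and by 0.61 in the libraries labelled U138MG (adjusted p = 3e-15). *TRAF5*, an adaptor of TNF receptors, fell from 3.09 ± 0.622 to 0.877 ± 0.0814 in KYSE30 (n = 3, log2 fold change -1.82, adjusted p = 4.26e-07 by edgeR). In the libraries labelled U138MG its log2 fold change was -0.52 (adjusted p = 2.35e-06 by edgeR). *PIDD1*, a death domain protein that activates caspase-2, had log2 fold changes of -0.66 in KYSE30 (adjusted p = 2.21e-07 by edgeR) and -0.63 in the libraries labelled U138MG (adjusted p = 1.29e-07). *FAIM*, a FAS inhibitory molecule, fell from 10.3 to 4.71 in the libraries labelled U138MG (-1.13, adjusted p = 4.42e-09 by edgeR) and was not called in KYSE30.

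Among 10 further caspases, 7 were tested in KYSE30, with 3 higher and 2 lower, and 9 in the libraries labelled U138MG, with 5 higher and 2 lower. Over all tested genes, 30.1% were higher and 32% lower in KYSE30, and 33.9% and 33.6% in the libraries labelled U138MG. *CASP9*, the initiator caspase of the mitochondrial route, rose in both, by 0.36 in KYSE30 (adjusted p = 0.000194 by edgeR) and by 0.64 in the libraries labelled U138MG (adjusted p = 1.06e-08). *CASP10*, the close relative of caspase-8, rose from 19.3 to 29.5 normalized CPM in the libraries labelled U138MG (0.61, adjusted p = 1.97e-08 by edgeR) and had at most 7 counts in any KYSE30 library, where it was not tested. *CASP14*, a caspase of keratinocyte differentiation, fell in the libraries labelled U138MG from 10.4, 17.5 and 10.1 to 4.30, 3.68 and 1.92 normalized CPM (-1.96, standard error 0.41, adjusted p = 0.0116 by edgeR).

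Of 16 inhibitors of apoptosis and mitochondrial factors, 15 were tested in each line, with 4 higher and 6 lower in KYSE30 and 5 higher and 7 lower in the libraries labelled U138MG. Background shares were 30.1% higher and 32% lower in KYSE30, and 33.9% and 33.6% in the libraries labelled U138MG. *BIRC3*, which codes for the ubiquitin ligase cIAP2, held 6.35, 5.29 and 6.63 normalized CPM under DMSO in KYSE30 and 34.4, 33.8 and 35.2 under PTDSS1i (log2 fold change 2.49, standard error 0.09, adjusted p = 6.71e-16 by edgeR). In the libraries labelled U138MG it rose from 40.4 to 66.6 (0.72, adjusted p = 2.16e-13). *BIRC5*, which codes for survivin and acts in cell division as well, fell in both lines, from 159 to 52.0 (-1.61, adjusted p = 3.57e-16 by edgeR) and from 53.2 to 16.2 (-1.72, adjusted p = 1.39e-19). *PARP1*, a nuclear enzyme that caspases cleave, fell from 365 ± 16.9 to 174.5 ± 2.02 in KYSE30 (-1.06, adjusted p = 1.03e-13 by edgeR) and from 267 to 132 in the others (-1.01, adjusted p = 3.37e-20). *BID*, which active caspase-8 cleaves to engage mitochondria, fell by 0.29 in KYSE30 (adjusted p = 0.000102 by edgeR) and rose by 0.20 in the libraries labelled U138MG (adjusted p = 0.00136).

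**Figure D4:**
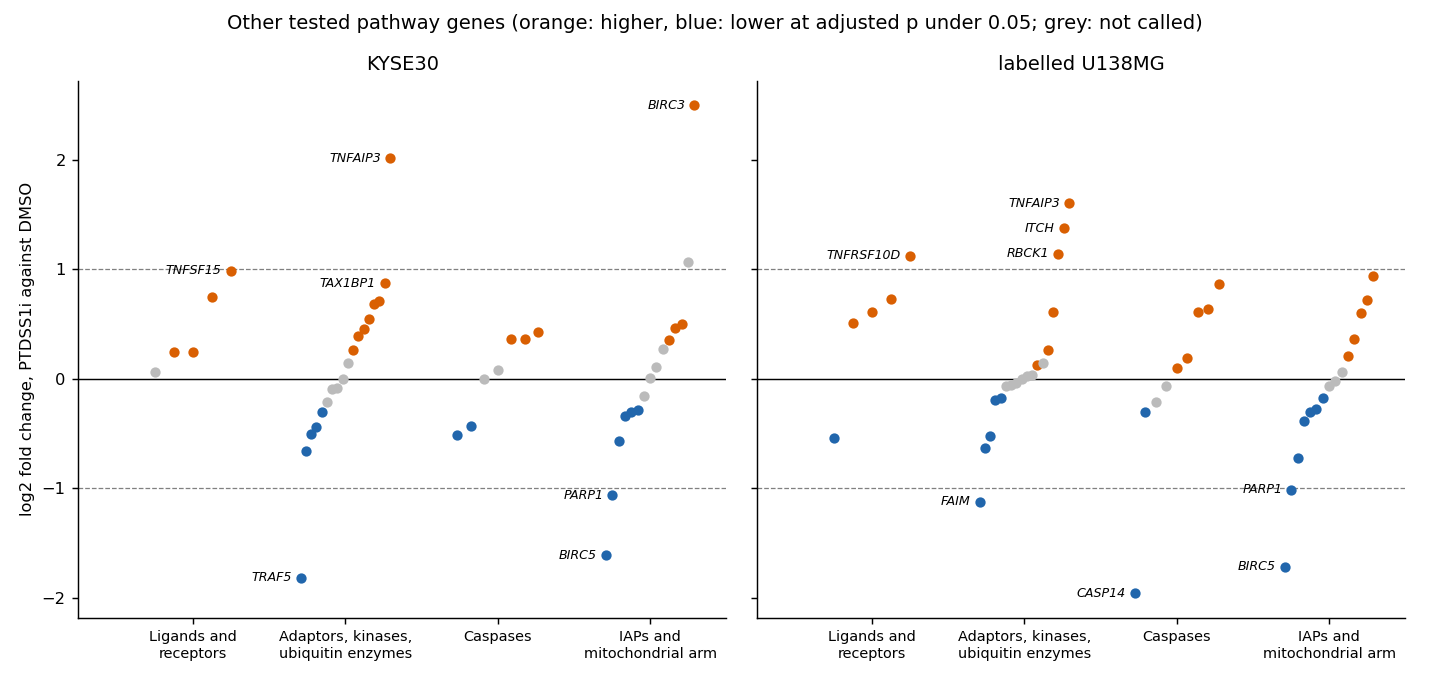
The log2 fold change of each tested gene of the 4 lists is plotted by list in both lines, in orange where called higher, blue where called lower and grey where not called, with dashed lines at -1 and 1. *BIRC3* in KYSE30, at 2.49, and *TNFAIP3* in both lines, at 2.01 and 1.60, stand highest, and *BIRC5* lies low in both, at -1.61 and -1.72.

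Genes of 3 programs known to act on death receptor genes were counted beside them. Of all tested genes, 30.1% were called higher and 32% lower in KYSE30, and 33.9% and 33.6% in the libraries labelled U138MG. All 10 genes of the ATF4 and CHOP list rose in both lines, with medians of 1.55 and 2.01 on the log2 scale. *DDIT3*, which codes for CHOP, rose by 2.03 in KYSE30 (adjusted p = 7.67e-14 by edgeR) and 3.37 in the libraries labelled U138MG (adjusted p = 6.15e-24). Of 12 p53 targets, 7 rose and 5 fell in KYSE30 and 8 rose and 4 fell in the libraries labelled U138MG, with *CDKN1A* up by 1.59 (adjusted p = 2.82e-16 by edgeR) and 0.94 (adjusted p = 5.73e-17). Of 14 interferon-stimulated genes, 12 rose and none fell in KYSE30, with a median of 1.81 over 13 tested, while 7 rose and 5 fell in the libraries labelled U138MG, with a median of 0.21 over 12 tested. *IFIT1* rose by 1.71 in KYSE30 (adjusted p = 1.37e-05 by edgeR) and fell by 1.10 in the libraries labelled U138MG (adjusted p = 2.6e-06). The part of these programs in the results for the 8 genes was not tested.

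The genes most like each of the 8 were taken as those with the highest Pearson correlation of log2 CPM, centred within each line, over the 12 libraries and 12134 named genes. These values are a description, since the treatment moves most of the points in each. For *TNFRSF10B* they were *KDELR3* (r = 0.998), *TRIB3* (r = 0.998) and *IL1RN* (r = 0.998), and for *TNFRSF10A* they were *PHLDA2* (r = 0.997), *GARS1* (r = 0.997) and *SERP1* (r = 0.997). *XIAP* was nearest to *SEC24A* (r = 0.995), *ZBTB21* and *ACSL4*. *TNFSF10* was nearest to *PALMD* (r = 0.992), *WNT10A* and *GABRP*, *FADD* to *RPP38* (r = 0.9747) and *OAZ1*, and *CFLAR* to *IFITM3* (r = 0.977), *AGPAT4* and *CERCAM*. Looser neighbours were found for *CASP8*, with *SNHG5* at r = 0.881, and for *FAS*, with *WDR5B-DT* at r = 0.945. Among the 8 genes themselves, *TNFRSF10A* and *TNFRSF10B* ran closest (r = 0.988), and *TNFSF10* ran against *TNFRSF10A* (r = -0.970).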

How the data were processed

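Poly-A RNA of 12 cultures was sequenced with the Illumina TruSeq v2 kit. The authors deposited raw counts, whole reads per gene, in 1 table per line without normalization. The submitters' processing notes list Trimmomatic, STAR, featureCounts and hg38. Versions, the gene annotation and whether reads were counted by strand are not given in the sources used here. The KYSE30 and U138MG tables list different gene sets, so levels were compared only within a line. All columns were matched to samples by their labels.

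Genes were joined by Ensembl identifier without version. Counts were filtered by filterByExpr (minimum count 10, minimum total 15), scaled by TMM and tested with edgeR 4.0.16 (robust quasi-likelihood, Benjamini-Hochberg over all tested genes) in R 4.3.3, and the difference between lines as an interaction over all 12 libraries. The script was tested on simulated data in which few genes changed, so that test did not cover scaling where most genes are called, as here. Figures were drawn in Python 3.11.15 with matplotlib 3.10.9. Positions and exon overlaps are from GENCODE v29 and promoter windows from RefSeq, and neither is known to be the annotation of the authors. Replicates of a group differed beyond sampling noise (chi-square per degree of freedom at least 2.29). In each library 3 counts correspond to 0.113 to 0.160 CPM, which covers counting error only.

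The members and gene lists were chosen with earlier results of these data known. Of the 56 further pathway genes, the text names *CASP9*, *CASP10* and *BID* by role and, in each line, up to 4 called genes in each direction with the largest change and a mean of at least 1 CPM; the few others were named after their values were seen. Alternatives were DESeq2 1.42.0, library totals alone, upper-quartile scaling, no filter on low counts, at least 10 counts in every library, a replicate block, both lines fitted together, a fold threshold and each library left out. No protein sequence was used here, and some genes that the naming rule selects are not reported here.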

Additional observations from a re-analysis of the deposited data

Results flagged for a closer look

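The effect of PTDSS1i differed between the 2 lines for 7 of the 8 genes by the interaction test in edgeR, each difference given on the log2 scale as labelled U138MG minus KYSE30. The same test called 49.9% of all 18405 genes tested. *TNFRSF10A* rose more in the libraries labelled U138MG, with a difference of 1.01 (adjusted p = 5.09e-09), and *TNFRSF10B* did so with 0.73 (adjusted p = 6.56e-11). *TNFSF10* fell further there, with -1.50 (adjusted p = 0.000387). *CFLAR* rose in KYSE30 alone, with -0.73 (adjusted p = 2.01e-08). *FAS* had opposite signs in the lines, with 0.48 (adjusted p = 0.00836). *FADD*, with 0.23 (adjusted p = 0.0057), and *XIAP*, with 0.24 (adjusted p = 0.00628), had the smallest differences that were called. Line, batch and annotation table cannot be told apart in this design.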

How the results depend on the processing

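*TNFRSF10A*, *TNFRSF10B* and *XIAP* in both lines, *CFLAR* in KYSE30, and *TNFSF10* and *FADD* in the libraries labelled U138MG kept their direction and call in all 13 alternatives. Of 352 alternative values of single genes, 313 kept direction and side of the threshold, 14 lost and 17 gained the call, and 8 turned, all of them uncalled. *FADD* in KYSE30 turned with library totals alone (-0.0117), *CASP8* labelled U138MG in single omissions (-0.0639 to 0.00274 on the log2 scale, the highest without DMSO replicate 2), and the *CASP8* difference between lines with upper-quartile scaling (-0.0898), with 10 counts in every library (-0.0147) and in 4 of 12 single omissions (-0.0347 to 0.0603). The count of the 8 genes lower in KYSE30, 1 as reported, was 3 with library totals alone, 2 with upper-quartile scaling, no filter, the strict filter or the replicate block, and 0 to 2 over omissions. Lower counts labelled U138MG (1 of the 8, 15 of the pathway) became 3 and 24 with library totals or upper-quartile scaling, where 14 rather than 20 pathway genes were higher, and 2 of the 8 with the strict filter. Library totals shifted the median of all genes by -0.11 and -0.15, and upper-quartile scaling by -0.02 and -0.15. With the fold threshold, 0 of the 8 were higher and 0 lower in KYSE30, 2 higher in the libraries labelled U138MG, and 2 differed between lines. Of the pathway genes, 2 of 45 in KYSE30 and 4 of 47 in the libraries labelled U138MG were then higher, against 6.4% and 8.19% of all tested genes. Lower were 3 of 45 and 4 of 47, against 7.04% and 11.6%. Over omissions the 8 gave 4 to 5 higher in each line and 6 to 7 line differences, and the pathway 18 to 20 and 18 to 19 higher and 12 to 15 and 14 to 15 lower. For the shifts in calls beyond scaling and sample number, the cause was not tested. Same-numbered replicates correlated at 0.020 to 0.075 in KYSE30, each best with its own number, and at -0.003 to 0.048 in the libraries labelled U138MG. The main tests were unpaired, and these values do not settle whether equal numbers mark paired cultures, above all in KYSE30. With the replicate block, *TNFSF10* was called lower in KYSE30 (adjusted p = 2.42e-06 by edgeR), and no other call of the 8 changed.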
